A study of Mus musculus with 25 samples.

Results

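The 40 genes described here are ones that cumulus and granulosa cells are known for, and cumulus cells gave the nuclei of all the cloned embryos sequenced here. They were chosen by symbol and found by Ensembl identifier in the count table, where all 40 were present among 55375 genes. RNA was measured in 25 libraries of 11 groups of late mouse two-cell embryos, each library from a pool of embryos collected at 28 to 29 h. IVF embryos (n = 4) came from B6N oocytes and DBA/2 sperm. For SCNT, BDF1 females gave both the oocytes and the cumulus cell nuclei. The strain of the oocyte cannot be told apart from the way an embryo was made, nor can hormone priming or insemination. Per the paper, IVF females received anti-inhibin serum and chorionic gonadotropin, and their oocytes were inseminated within cumulus complexes. Females that gave cumulus cells received pregnant mare serum gonadotropin and chorionic gonadotropin. Embryos made in cytochalasin B were left without mRNA (control SCNT, n = 2) or were injected with 10 pL of *Kdm3a* or *Kdm4d* mRNA at 1500 ng/µL (SCNT-*Kdm3a* and SCNT-*Kdm4d*, n = 2 each), which encode demethylases of histone H3 lysine 9. Embryos made in latrunculin A were left untreated (control CC, n = 2), or received the histone deacetylase inhibitor TSA at 25 nM for 8 h (CC_T, n = 2), or an inhibitor of the methyltransferase G9a at 1 µM for 24 h, namely RK-701, written R701 in the labels (CC_G with RK-701, n = 3), or A366 (CC_G with A366, n = 2). The other 3 groups received TSA together with RK-701, A366 or UNC0638 (CC_TG, n = 2 each). Control SCNT and control CC are jointly called untreated SCNT.

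Cumulus cells surround the ovulated oocyte, and granulosa cells line the growing follicle. Granulosa cells make inhibins, activins and follistatin of the TGF-beta family, respond to gonadotropins, and convert androgen to oestrogen. After the ovulatory signal, EGF family ligands cause cumulus cells to build a matrix of hyaluronan that is held together by *Ptx3* and *Tnfaip6* proteins. A transcript of such a gene in a two-cell embryo can come from the donor cell, from the oocyte, from cells attached to the embryo or from the embryo's own genome, and poly(A) counts from pooled embryos cannot tell these apart, nor can they tell fewer embryos with the RNA from less RNA in each.

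A library held 6662727 to 21188688 read pairs on genes (median 13994840). The injected transcripts followed the labels, with *Kdm3a* at 3420 to 3800 normalised counts (CPM, read pairs scaled to a common library total by TMM) in SCNT-*Kdm3a* and 119 to 293 elsewhere. *Kdm4d* stood at 13800 to 20400 CPM in SCNT-*Kdm4d* and at 0.786 to 5.57 elsewhere. Markers of the two-cell embryo summed to 2360 to 2900 CPM in IVF libraries, to 1230 to 1540 in control SCNT and to 846 to 1250 in control CC, and 6 of 11 tested were lower in untreated SCNT than in IVF. Oocyte and maternal transcripts summed to 1820 to 2260 CPM in IVF, 1250 to 1480 in control SCNT and 1270 to 1460 in control CC, with 6 of 10 tested lower. Markers of leucocytes and erythroid cells summed to 10.3 to 16.3 CPM in IVF, 23.8 to 30.6 in control SCNT and 23.6 to 33.8 in control CC. Of 7 tested, 3 were higher, and their part in the results below was not tested. These counts of markers use the test and thresholds given below, by which 18.8% of all genes were called in untreated SCNT against IVF.

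RefSeq windows of the bases before the transcription start (GRCm38.p6) are printed for 3 members, chosen after their values were seen as examples that differ in CpG content. Capitals mark the core promoter motif, spelled TATAAA, on either strand. The 4 other motifs, also sought on both strands, were AP-1 with the letters TGANTCA, the cyclic AMP response element with the letters TGACGTCA, a motif of the Gata factors with the letters AGATAA, and a motif of NR5A receptors with the letters CAAGGTCA, and none of them was found in these 3 windows.
Sparc, chr11:55420081-55420330, minus strand: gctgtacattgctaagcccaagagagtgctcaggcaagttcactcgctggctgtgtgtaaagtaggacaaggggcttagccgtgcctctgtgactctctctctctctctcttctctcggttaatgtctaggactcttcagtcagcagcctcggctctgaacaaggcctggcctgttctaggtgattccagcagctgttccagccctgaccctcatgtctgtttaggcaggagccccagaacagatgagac
Kitl, chr10:100015571-100015820, plus strand: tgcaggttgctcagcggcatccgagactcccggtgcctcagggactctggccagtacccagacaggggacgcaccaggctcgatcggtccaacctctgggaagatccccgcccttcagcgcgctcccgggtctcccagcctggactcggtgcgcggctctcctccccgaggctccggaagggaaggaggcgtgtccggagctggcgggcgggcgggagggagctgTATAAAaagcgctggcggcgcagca
Serpine2, chr1:79858666-79858915, minus strand: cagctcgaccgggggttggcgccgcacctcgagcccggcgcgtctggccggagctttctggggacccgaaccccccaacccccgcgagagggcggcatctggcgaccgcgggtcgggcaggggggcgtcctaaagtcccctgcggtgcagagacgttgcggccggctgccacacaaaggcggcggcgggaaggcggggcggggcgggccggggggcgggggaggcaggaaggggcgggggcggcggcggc
The *Sparc* window holds 4 CpG and no match, that of *Kitl* holds 23 CpG and a match of the core promoter motif 25 bases before the start, and that of *Serpine2* holds 34 CpG and no match. Over all 32851 windows of the table the median was 6 CpG and 12.4% held the core promoter motif, 6.7% that of AP-1, 1.5% the cyclic AMP element, 10% the Gata motif and 1.3% the NR5A motif. A window was found for 27 of the 40 members, with a median of 8 CpG, and the core promoter motif was in 6 of them, the Gata motif in 2, and the other motifs in 1 each, that of AP-1 in *Tnfaip6*, the cyclic AMP element in *Areg* and the NR5A motif in *Amhr2*. The RefSeq starts of *Sparc* and *Serpine2* lie 3103 and 2515 bases inside the gene as the count table draws it, and that of *Kitl* 191 bases, so the windows belong to those starts only.

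Most members were close to the limit of detection. Of the 40, 8 had more than 3 reads in all 25 libraries, namely *Tnfaip6*, *Ptgs2*, *Kitl*, *Amhr2*, *Star*, *Gata4*, *Serpine2* and *Sparc*, and 24 had more than 3 reads in fewer than 13 libraries. A library had between 14 and 27 members above 3 reads, with a median of 19. Per length, as TPM averaged over all libraries, the order was *Gata4* (44.2), *Amhr2* (42.5), *Serpine2* (28), *Sparc* (8.49), *Tnfaip6* (7.35) and *Kitl* (6.13), and 11 members reached 1 TPM. *Gata4*, a transcription factor of granulosa cells, *Amhr2*, the receptor of anti-Müllerian hormone, and *Serpine2*, a protease inhibitor secreted by cumulus cells, together made up 55.1% to 82.6% of the summed CPM of all members.

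The 7 members with a mean under 1 read were not tested, and 33 were. *Foxl2*, the transcription factor that keeps granulosa identity, had at most 6 reads, in an IVF library, and 11 libraries had any. It shares exon bases with Foxl2os, which had up to 23 reads, and pairs on both were not counted. *Ptx3* had 11 reads in control SCNT library 1 and at most 3 elsewhere. *Amh* had 9 reads in control SCNT library 2 and at most 3 elsewhere, and *Inha*, the inhibin alpha chain, had 7 reads in SCNT-*Kdm4d* library 2 and at most 2 elsewhere. *Cd44*, the hyaluronan receptor, reached 12 reads in control SCNT library 2 and 7 in an IVF library. The collagen *Col3a1* had at most 2 reads and the proteoglycan *Lum* had 1 read in all.

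**Figure D1:**
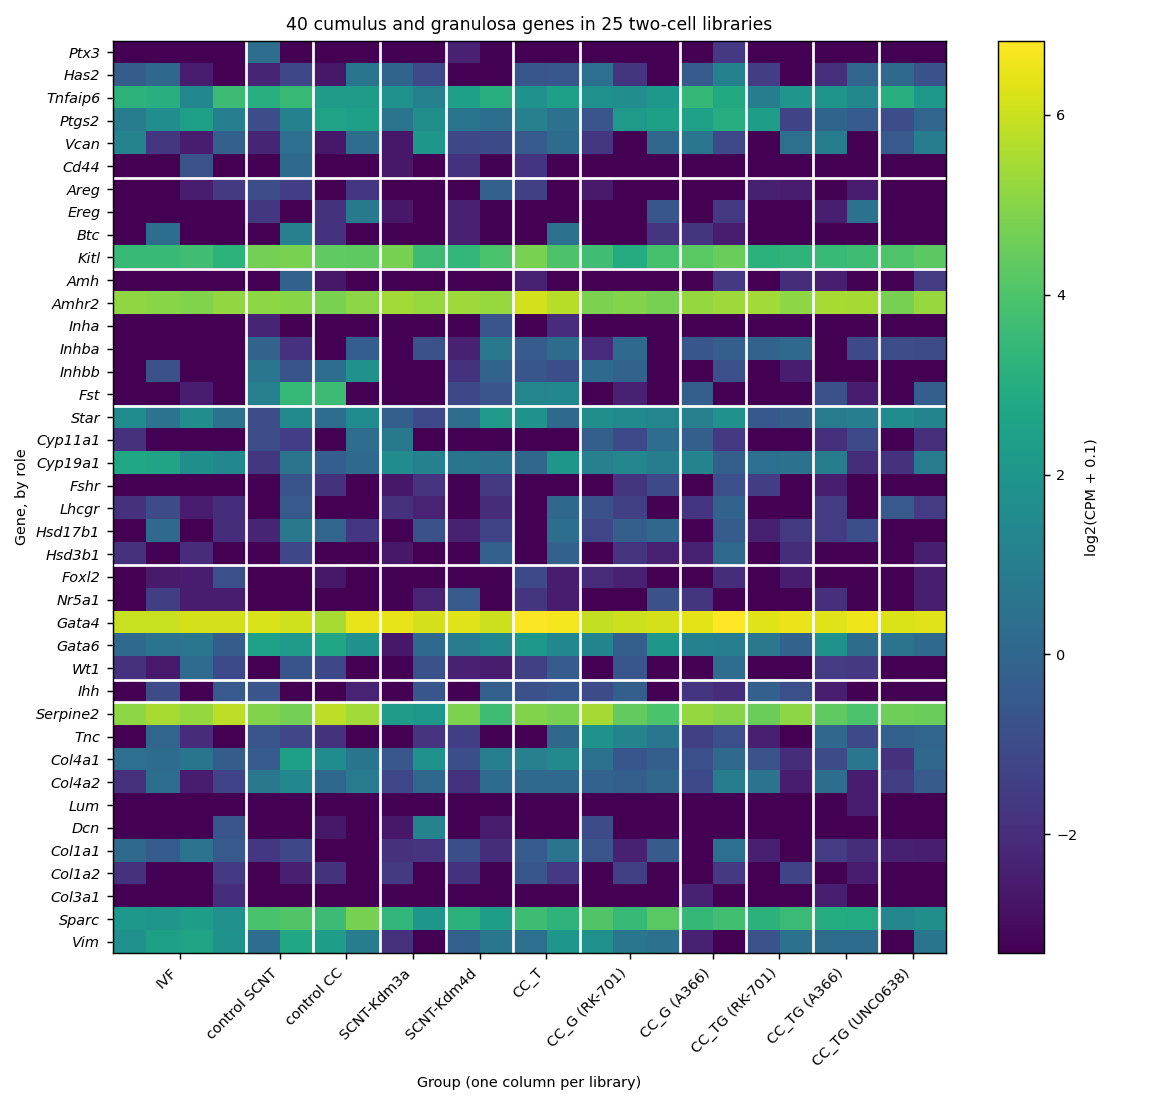
Normalised level of each of the 40 members (rows, in blocks by role) in each of the 25 libraries (columns, in blocks by group), as log2(CPM + 0.1) on the colour scale. *Gata4*, *Amhr2* and *Serpine2* stand out in nearly every library, and 20 members are at 0 reads in 10 or more libraries.

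To ask whether donor cell genes stood at another level in cloned than in fertilised embryos, untreated SCNT was set against IVF. Of the 33 tested members, 5 were higher (*Kitl*, *Inhba*, *Fst*, *Gata6*, *Sparc*) and 2 lower (*Cyp19a1*, *Col1a1*), by edgeR's quasi-likelihood test with an adjusted p under 0.05 and a fold over 2, which 18.8% of all 25794 tested genes passed. The median log2 fold change of the members was −0.07, and that of all genes was 0.00. The 7 calls were thus 21.2% of the members tested, near the share of all genes. Control SCNT alone against IVF had *Kitl*, *Inhba*, *Fst*, *Gata6* and *Sparc* higher and none lower (15% of all genes called), and control CC alone had *Ereg*, *Inhbb*, *Fst*, *Gata6* and *Sparc* higher and *Col1a1* lower (15.3%).

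*Sparc*, a matrix protein that binds collagen, was at 4.13, 3.76, 5 and 3.38 CPM in the IVF libraries, at 15.1 and 16.9 in control SCNT and at 12.4 and 26.6 in control CC. Each untreated SCNT library was above each IVF library, and the log2 fold change was 2.11 ± 0.31 (SE, adjusted p = 8.23e-06 by edgeR). *Gata6*, a factor related to *Gata4*, was at 0.691 to 1.5 CPM in IVF and at 5.42, 4.37, 6.3 and 3.36 in the untreated SCNT libraries. The groups did not overlap, and the log2 fold change was 2.07 ± 0.58 (SE, adjusted p = 0.00765 by edgeR). *Gata6* shares exon bases with 1010001N08Rik, and pairs on both were not counted.

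*Kitl*, the ligand of the oocyte receptor Kit, was at 9.37 to 13 CPM in IVF, at 25.7 and 27.7 in control SCNT and at 20 and 19.5 in control CC. The groups did not overlap, with a log2 fold change of 1.03 ± 0.25 (SE, adjusted p = 0.00263 by edgeR). The fold fell just under 2 without IVF library 4 (0.95) and without control SCNT library 2 (1.00 as rounded), whereas both adjusted p stayed under 0.05. Control CC alone was not called against IVF (0.81 ± 0.3, SE, adjusted p = 0.052).

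The activin and follistatin genes were uneven between pools. *Fst*, follistatin, which binds activin, had 0, 0, 1 and 0 reads in IVF, 19 and 125 in control SCNT, and 207 and 0 in control CC. The mean level in untreated SCNT was at least 21.7-fold that of IVF when each IVF library is set to 3 reads (adjusted p = 0.000309 by edgeR). One untreated library had none. Without control CC library 1 that control has no read, and the fit, which averages both controls on the log scale, cannot decide on the call. Set against IVF singly, control SCNT (adjusted p = 0.000777 by edgeR) and control CC (0.000815) were both called. *Inhba*, the activin beta A chain, had no read in the 4 IVF libraries, 8 and 2 in control SCNT and 0 and 7 in control CC, so that the bound was only 1.49-fold (adjusted p = 0.0333 by edgeR). The call on *Inhba* was lost without any one IVF library (adjusted p = 0.0539 to 0.0713) and without control SCNT library 1. Without control CC library 2 that control has no read, and the fit cannot decide on the call. Set against IVF singly, control SCNT was called (adjusted p = 0.0461 by edgeR) and control CC was not (0.078). *Inhbb*, the beta B chain, had 7 reads in one IVF library and none in the others, against 14, 6, 19 and 33, and just missed the threshold (adjusted p = 0.0502 by edgeR), which it passed with control CC alone (0.0466) and not with control SCNT alone (0.172).

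The lower pair were *Cyp19a1*, aromatase, and *Col1a1*. *Cyp19a1* was at 6.53, 5.94, 3.22 and 2.53 CPM in IVF and at 0.212, 1.4, 0.713 and 1.02 in the untreated SCNT libraries. The groups did not overlap, with a log2 fold change of −2.42 ± 0.68 (SE, adjusted p = 0.00834 by edgeR). Set against IVF singly, neither control was called, at −2.44 for control SCNT (adjusted p = 0.053) and −2.39 for control CC (adjusted p = 0.0555). *Col1a1*, a collagen chain of fibroblasts, had 6, 10, 19 and 8 reads in IVF and 2, 4, 0 and 0 in untreated SCNT, with means of 0.922 and 0.14 CPM (adjusted p = 0.0113 by edgeR). Its fitted fold rests on the control CC libraries, both at 0, and the call was lost with control SCNT alone, at a mean of 0.281 CPM (adjusted p = 0.379), and without control CC library 1 (adjusted p = 0.0502).

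The 3 members of highest TPM did not pass. *Gata4* was at 66.9 ± 5.06 CPM in IVF (SD, n = 4) and 70.6 ± 3.48 in control SCNT (SD, n = 2), and its libraries in control CC lay apart, at 44.9 and 89.4. Its log2 fold change was 0.04 ± 0.17 (SE, adjusted p = 0.893 by edgeR), that of *Amhr2* was −0.07 ± 0.16 (SE, adjusted p = 0.773) and that of *Serpine2* was −0.2 ± 0.26 (SE, adjusted p = 0.61).

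By role, none of 4 tested genes of the expansion matrix was called, nor was *Ihh*, the hedgehog ligand. One of 4 EGF family and Kit ligands, 2 of 4 tested genes of the TGF-beta family and 1 of 4 tested transcription factors were higher. One of 7 genes of steroidogenesis was lower, and of 9 tested genes of matrix and cytoskeleton 1 was higher and 1 lower. *Star*, which brings cholesterol into mitochondria, did not pass (log2 fold change −0.26 ± 0.56, SE, adjusted p = 0.778 by edgeR).

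**Figure D2:**
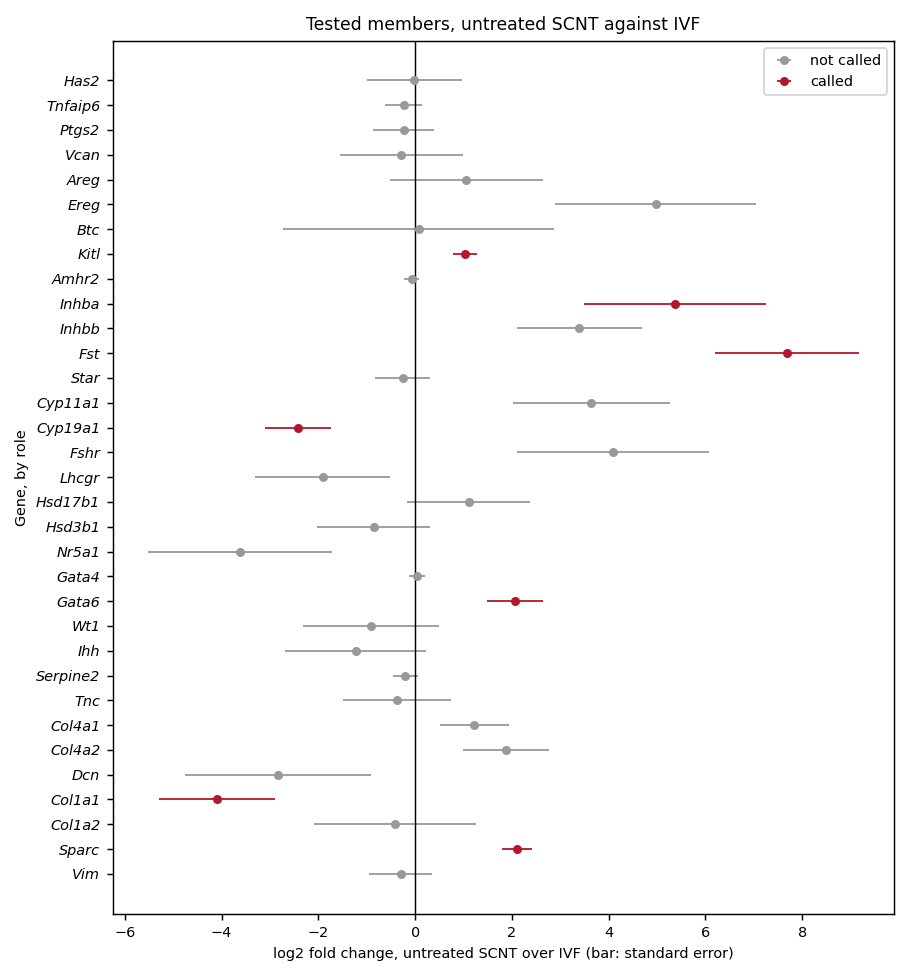
Log2 fold change of each of the 33 tested members in untreated SCNT over IVF (points, in order of role), with the standard error as bars and called members in red. The 5 called above 0 and the 2 below it are spread over several roles, and low members have wide bars.

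Of 40 other genes known from cumulus and granulosa cells, 38 were tested and 5 were higher and 5 lower, where 18.8% of all genes were called. Their median log2 fold change was 0.17, and that of all genes is given above. The higher ones included, by edgeR, *Runx1* (1.67 ± 0.39, SE, adjusted p = 0.00176) and *Igfbp4* (2.05 ± 0.5, adjusted p = 0.00248). *Npr2*, with no read in IVF and 7, 13, 11 and 2 in untreated SCNT, was at least 2.35-fold higher when each IVF library is set to 3 reads (adjusted p = 0.0238). *Grem1*, with 2, 0, 0 and 0 reads in IVF and 22, 5, 56 and 0 in untreated SCNT, was at least 5.24-fold higher (adjusted p = 0.0369). The lower ones of smallest adjusted p were *Hmgcs1*, of cholesterol synthesis (−1.42 ± 0.14, adjusted p = 1.77e-08), *Fdx1* (−1.23 ± 0.32, adjusted p = 0.00457) and *Adamts4* (−1.63 ± 0.56, adjusted p = 0.0279). *Fos* had 7, 26, 18 and 38 reads in IVF against 21 and 10 in control SCNT and none in control CC (adjusted p = 0.0307), and *Igf1* was also lower. Of 9 tested markers of fibroblasts and mesenchyme 1 was higher and 2 lower, of 5 of theca and luteal cells 1 and 1, and of 5 of the oviduct 1 higher, *Ovgp1*. The share of all genes called beside these counts is the same 18.8%.

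No member differed between control CC and control SCNT by edgeR, with 3 at an unadjusted p under 0.05 and none by DESeq2, where 0.0116% of all genes were called.

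The treatments were then set against the control made with the same actin inhibitor, so comparisons within each set share their control libraries. Over 8 treatments there were 11 calls lower, of 7 members, and 1 higher. SCNT-*Kdm3a* had 5 lower of 33, where 4.16% of all genes were called, and SCNT-*Kdm4d* had none, with 3 at an unadjusted p under 0.05 and 2 by DESeq2, where 3.17% of all genes were called. CC_T had 1 higher (0.326% of all genes). CC_G with RK-701 had 1 lower (3.34%) and with A366 none, with 6 at an unadjusted p under 0.05 and 1 by DESeq2 (0.12%). CC_TG with RK-701 had 1 lower (6.22%), with A366 3 lower (6.01%) and with UNC0638 1 lower (6.21%). The median log2 fold change of the members was negative in 6 of the 8, from −0.11 in CC_G with RK-701 to −1.93 in CC_TG with UNC0638, and was 0.14 in CC_T and 0.34 in CC_G with A366. That of all genes was −0.12 to −0.01. Within a library, the members' median log2(CPM + 0.1) had an SD of 1.09 between libraries (the larger of that in IVF and that in untreated SCNT), and for SCNT-*Kdm3a* the median fold change was −1.14 against control SCNT and −0.19 against control CC.

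*Serpine2* was lower in SCNT-*Kdm3a*, at 4.83 and 4.13 CPM against 30.1 and 26.2 in control SCNT. The log2 fold change was −2.64 ± 0.41 (SE, adjusted p = 0.000272 by edgeR), and it was also lower than in IVF (−3.25 ± 0.39, SE, adjusted p = 1.2e-06). *Vim*, an intermediate filament protein of somatic cells, had 3 and 0 reads in SCNT-*Kdm3a* against 11 and 77 in control SCNT, at least 17.4-fold lower (adjusted p = 0.0121 by edgeR), and against 20 to 83 in IVF, at least 20-fold lower (adjusted p = 0.002). The call against control SCNT was lost without control SCNT library 2 (adjusted p = 0.159) and without SCNT-*Kdm3a* library 2 (adjusted p = 0.124).

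*Gata6* was at 0.0575 and 1.03 CPM in SCNT-*Kdm3a* against 5.42 and 4.37 (log2 fold change −3.26 ± 0.88, SE, adjusted p = 0.0252 by edgeR), and the call was lost without control SCNT library 1 (adjusted p = 0.122) or SCNT-*Kdm3a* library 1 (adjusted p = 0.211). *Fst* had no read in SCNT-*Kdm3a* against 19 and 125, at least 28.5-fold lower (adjusted p = 0.0175), lost without control SCNT library 2 (0.0778), SCNT-*Kdm3a* library 1 (0.121) or 2 (0.115). *Tnfaip6*, which links hyaluronan in the expanding cumulus, was at 3.27 and 2.07 CPM against 8.07 and 11.7 (−1.87 ± 0.56, adjusted p = 0.0428), and was lost without any one of the 4 libraries (adjusted p = 0.0941 to 0.263).

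Under TSA with UNC0638, *Sparc* lay below the IVF libraries at 3.38 to 5 CPM but was not called against IVF (log2 fold change −0.52 ± 0.4, SE, adjusted p = 0.427 by edgeR). Against control CC it fell, at 2.5 and 3.15 CPM against 12.4 and 26.6 (−2.77 ± 0.45, SE, adjusted p = 0.000249 by edgeR). It was also called lower under TSA with A366, at 7.7 and 7.21 CPM (−1.38 ± 0.42, adjusted p = 0.0375), lost without control CC library 2 (0.408) or either CC_TG library (0.167 and 0.206). *Serpine2* was lower there too, at 20.4 and 15.2 CPM against 56 and 42.6 (−1.47 ± 0.38, adjusted p = 0.0134), lost without control CC library 1 (0.0633) or either CC_TG library (0.056 and 0.164). *Inhbb* had no read in CC_TG with A366 against 19 and 33, at least 9.8-fold lower (adjusted p = 0.0465), lost without control CC library 2 (0.141) or either CC_TG library (0.224 and 0.235).

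*Fst* had 0, 1 and 0 reads in CC_G with RK-701 and none in CC_TG with RK-701, at least 24.2-fold and 25.4-fold lower on average than control CC (adjusted p = 0.0118 and 0.0134 by edgeR). Against control SCNT, made with the other actin inhibitor and holding 19 and 125 reads, *Fst* was also called lower in both these groups. Both calls against control CC rest on the 207 reads of its library 1, without which control CC has no read. The first was also lost without CC_G library 1 (adjusted p = 0.0577) or 3 (0.0609), and the second without CC_TG library 1 (0.1) or 2 (0.131). *Amhr2* was the 1 member called higher, at 70.8 and 52.8 CPM in CC_T against 27.7 and 33 (1.03 ± 0.22, SE, adjusted p = 0.0371), lost without control CC library 1 (0.204) or CC_T library 1 (0.356).

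**Figure D3:**
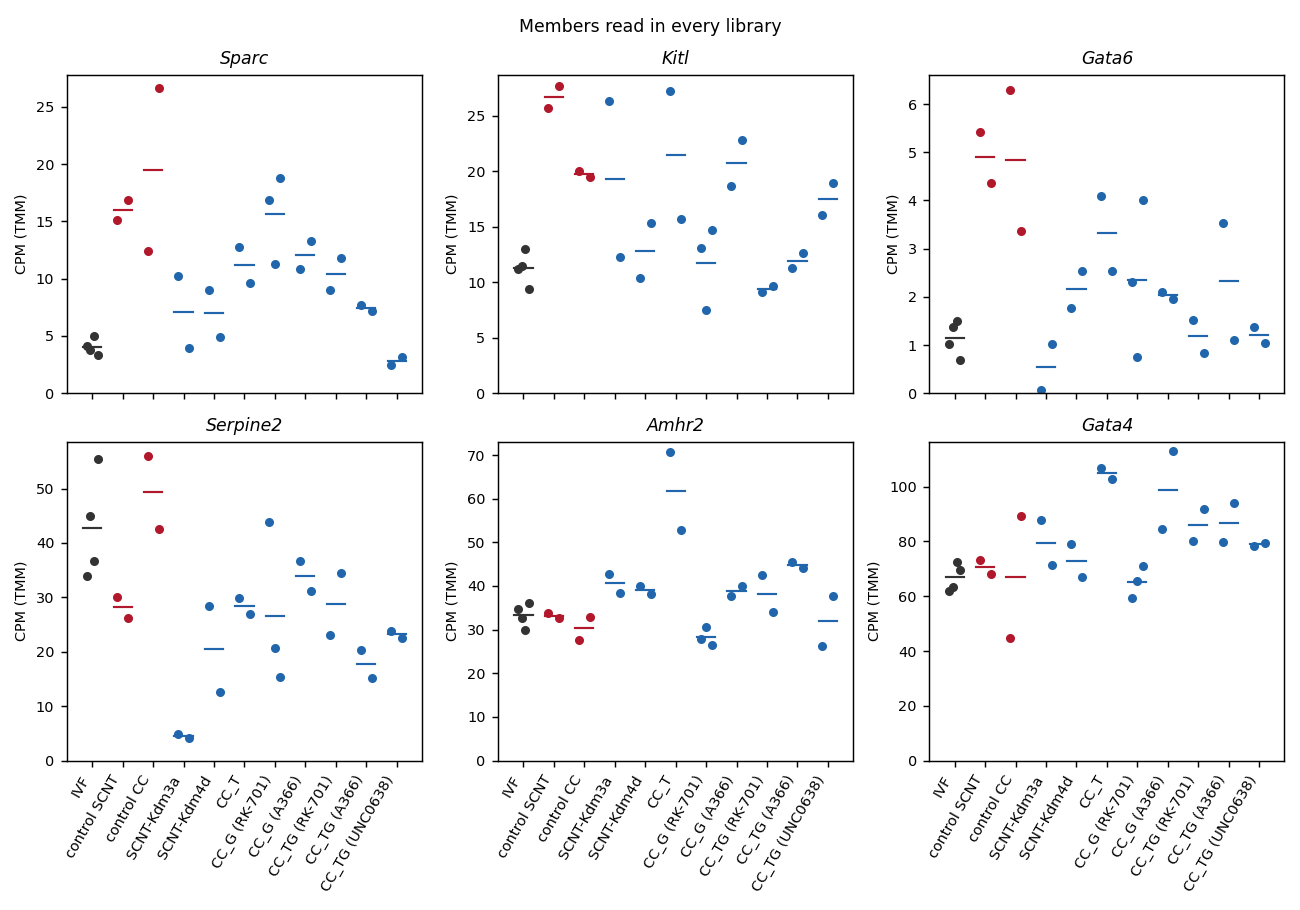
Normalised count (CPM after TMM) of 6 members in each library (points) with the group mean (line), for IVF (black), both untreated controls (red) and the 8 treated groups (blue), with each axis starting at 0. *Sparc* and *Gata6* are higher in both untreated groups than in IVF, and *Serpine2* is lowest in SCNT-*Kdm3a*.

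The 8 treated groups were also set against IVF, sharing the 4 IVF libraries, and gave 9 calls higher and 8 lower. SCNT-*Kdm3a* had 3 of 33 lower (*Serpine2*, *Vim*, *Tnfaip6*; 12.8% of all genes called) and SCNT-*Kdm4d* had *Inhba* higher and *Serpine2* lower (9.29%). CC_T had *Inhba*, *Fst* and *Sparc* higher (14.9%), CC_G with RK-701 had *Sparc* higher and *Tnfaip6* lower (11.8%), and CC_G with A366 had *Inhba* and *Sparc* higher and *Vim* lower (15.2%). CC_TG with RK-701 had *Inhba* and *Sparc* higher and *Tnfaip6* lower (12.2%), with A366 *Serpine2* lower (10.9%), and with UNC0638 none by edgeR, with 8 at an unadjusted p under 0.05 and 3 by DESeq2 (9.84%).

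*Sparc* stayed above IVF in CC_T (log2 fold change 1.46 ± 0.36, SE, adjusted p = 0.00371 by edgeR), CC_G with RK-701 (1.94 ± 0.33, adjusted p = 7.59e-05), CC_G with A366 (1.57 ± 0.36, adjusted p = 0.00193) and CC_TG with RK-701 (1.36 ± 0.36, adjusted p = 0.00802). The calls in CC_T and CC_TG with RK-701 were lost without library 1 (adjusted p = 0.0786) and library 2 (0.13) of those groups. *Serpine2* was lower than in IVF in SCNT-*Kdm4d* (−1.07 ± 0.34, adjusted p = 0.0332), lost without IVF library 2 (0.0592) or 4 (0.0928) or SCNT-*Kdm4d* library 2 (0.457), and in CC_TG with A366 (−1.27 ± 0.34, adjusted p = 0.0107), lost without library 2 of that group (0.174). *Vim* had 1 and 0 reads in CC_G with A366, at least 18.1-fold under IVF (adjusted p = 0.001).

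*Fst* was called above IVF in CC_T, with 25 and 35 reads, at least 8.35-fold (adjusted p = 0.00512 by edgeR). *Inhba* in SCNT-*Kdm4d* (1 and 21 reads), CC_T (7 and 15), CC_G with A366 (6 and 10) and CC_TG with RK-701 (10 and 13) was at least 2.93-fold, 2.98-fold, 2.23-fold and 3.17-fold above IVF (adjusted p = 0.0282, 0.0199, 0.03 and 0.0209). Without one library at a time each of these *Inhba* calls was lost at least once, with adjusted p up to 0.496, 0.0693, 0.1 and 0.0741. *Tnfaip6* was called below IVF in SCNT-*Kdm3a* (−1.58 ± 0.5, adjusted p = 0.0265), CC_G with RK-701 (−1.21 ± 0.43, 0.0454) and CC_TG with RK-701 (−1.52 ± 0.5, 0.0347), overlapped the IVF libraries in all 3, and was lost without IVF library 4 in all 3 (0.0891, 0.174 and 0.111). Those calls were also lost without other libraries, with adjusted p up to 0.217, 0.174 and 0.314.

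**Figure D4:**
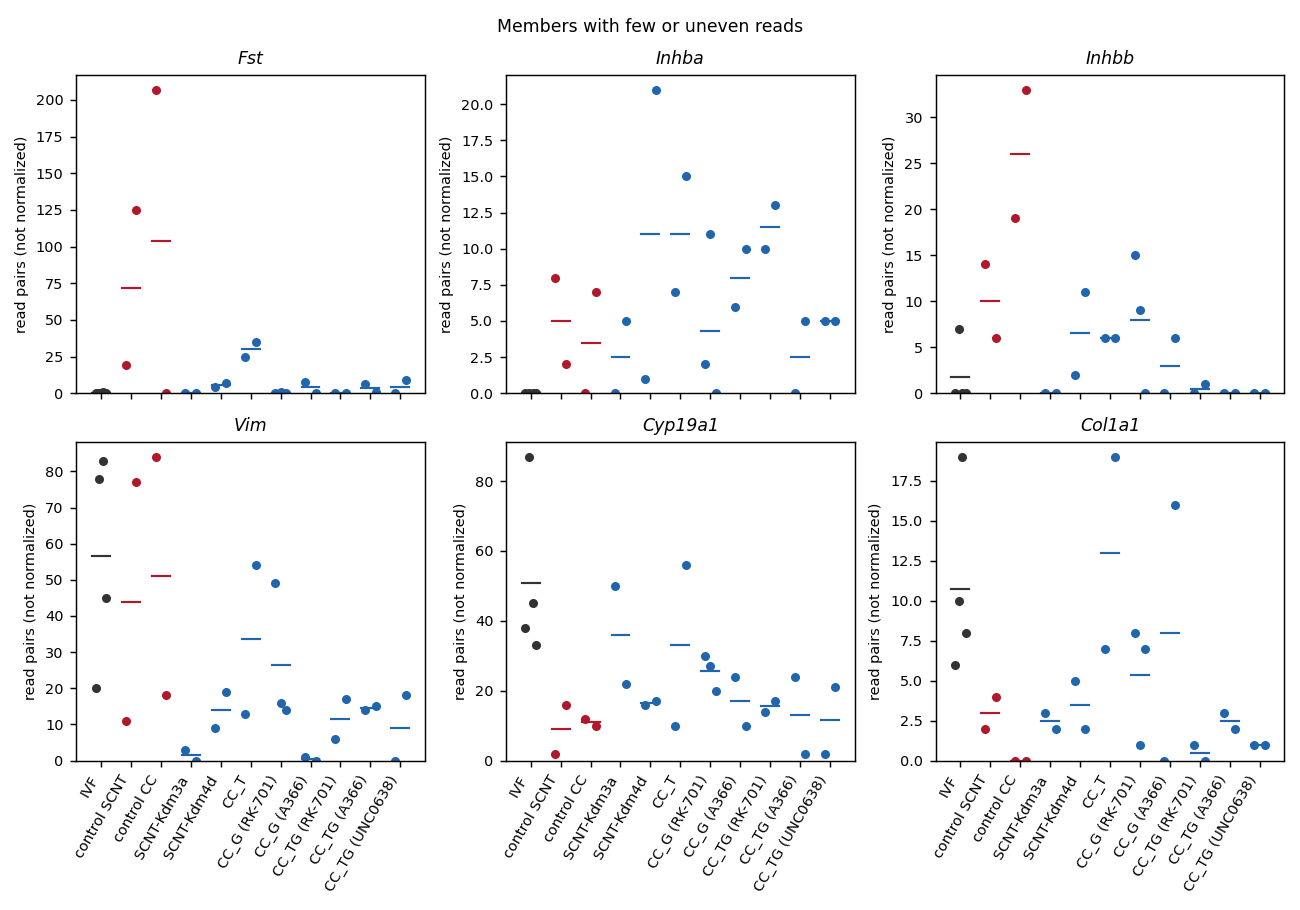
Read pairs, not normalised, of 6 members in each library (points) with the group mean (line), coloured as black for IVF, red for the untreated controls and blue for treated groups. *Fst* is carried by 2 of the 4 untreated libraries, at 125 and 207 reads, and *Inhba* has none in IVF.

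Treatments were compared directly in 5 pairs, at the same dose and time for the G9a inhibitors, and 3 of the members' differences passed. *Serpine2* was higher in SCNT-*Kdm4d* than in SCNT-*Kdm3a*, at 28.4 and 12.6 CPM against 4.83 and 4.13 (log2 fold change 2.18 ± 0.41, SE, adjusted p = 0.0139 by edgeR, 0.326% of all genes called). *Vim* was higher in CC_G with RK-701 than with A366, at 49, 16 and 14 reads against 1 and 0, at least 8.15-fold (adjusted p = 0.0103, 8.08% of all genes). *Sparc* was higher in CC_TG with RK-701 than with UNC0638, at 9 and 11.8 CPM against 2.5 and 3.15 (1.88 ± 0.45, adjusted p = 0.0303, 0.942%). The first was lost without either SCNT-*Kdm3a* library (0.144 and 0.0731) or SCNT-*Kdm4d* library 1 (0.366), the second without A366 library 2 (0.153), and the third without any one library (0.0831 to 0.346).

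Between CC_TG with RK-701 and with A366 no member passed by edgeR, with 1 at an unadjusted p under 0.05 and none by DESeq2, and 0% of all genes did. There the 95% interval of the log2 difference was −0.46 to 0.44 for *Gata4*, −0.66 to 0.2 for *Amhr2* and −0.34 to 1.3 for *Sparc*. Between A366 and UNC0638 with TSA no member passed either, with 3 at an unadjusted p under 0.05 and none by DESeq2 (0.853% of all genes), and the interval for *Sparc* was 0.51 to 2.27.

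When an agent was added to another, 4 calls in 5 pairs were all lower. They were *Kitl* when RK-701 was added to TSA, at 9.09 and 9.67 CPM against 27.2 and 15.7 (log2 fold change −1.19 ± 0.36, SE, adjusted p = 0.0492 by edgeR, 3.11% of all genes called), and *Sparc* when UNC0638 was added to TSA (−1.98 ± 0.45, adjusted p = 0.00696, 4.97%). The others were *Tnc*, tenascin C, when TSA was added to RK-701, with 1 and 0 reads against 53, 24 and 16, at least 10.1-fold (adjusted p = 0.0393, 10.3%), and *Ptgs2*, which makes prostaglandin in ovulation, when TSA was added to A366, at 11 and 9 reads against 60 and 106 (−3.12 ± 0.96, adjusted p = 0.0455, 4.77%). Adding A366 to TSA moved none by edgeR, with 4 at an unadjusted p under 0.05 and none by DESeq2 (1.92%). Each of the 4 was lost without at least 1 library, namely *Kitl* without CC_T library 1 (0.552), CC_TG library 1 (0.225) or 2 (0.22), *Sparc* without CC_T library 1 (0.12) or CC_TG library 1 (0.105), *Tnc* without any of its 5 (0.0515 to 0.288) and *Ptgs2* without any of its 4 (0.0779 to 0.253).

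The 19 tested members called in none of the 28 comparisons were *Has2*, *Vcan*, *Areg*, *Ereg*, *Btc*, *Star*, *Cyp11a1*, *Fshr*, *Lhcgr*, *Hsd17b1*, *Hsd3b1*, *Nr5a1*, *Gata4*, *Wt1*, *Ihh*, *Col4a1*, *Col4a2*, *Dcn* and *Col1a2*. *Ereg* was among the calls of control CC alone against IVF, given above, which is not one of the 28. Apart from *Gata4*, they had at most 61 reads in a library (*Col4a1*). *Fshr* and *Lhcgr*, the receptors of follicle stimulating and luteinising hormone, had at most 6 and 13 reads, *Nr5a1* had at most 7, and *Areg* and *Ereg*, EGF family ligands of cumulus expansion, had at most 10 and 17. *Has2*, which makes hyaluronan, had 0 to 28 reads.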

How the data were processed

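Raw counts of read pairs per gene, as deposited by the authors without normalization, were used for 25 libraries. Per the labels and file headers, reads were trimmed with Trimmomatic, aligned to mm10 with STAR and counted with featureCounts 1.6.2 without strand, on an annotation with transposable element copies that hold no exon bases of the members. Rows of transposable elements (1755056) were not used. A pair on exons of more than 1 gene was not counted. Besides *Gata6* and *Foxl2*, this can lower the counts of *Has2*, *Ereg*, *Fst*, *Cyp11a1*, *Tnc*, *Col3a1*, *Col4a1* and *Col4a2*, which share exon bases with another gene. No batch or date was given. edgeR 4.0.16 in R 4.3.3 (quasi-likelihood, TMM) was fitted once with 11 groups over all libraries and tested 25794 genes, those on autosomes that averaged 1 read or more. A gene was called at a Benjamini-Hochberg adjusted p under 0.05 and a fold over 2. SE is the log2 fold change over the root of F. TPM came from counts and exon lengths over all genes. Where all libraries of the lower group held 3 reads or fewer, the fold is a bound at 3 reads per library. Bounds take the mean of the higher group as counted, and cover neither its error nor the spread between pools. Where a lower library itself held close to 3 reads, they leave little margin for counting error. P values measure the spread between pools. Named genes are all members, with values for those called and for the 3 of highest mean TPM. Other lists are given by counts, and 1 gene of them is not reported here by name. The members and lists were chosen with earlier results of these data known. The steps were tested on simulated data, where only genes of higher mean counts were changed and all genes had the same dispersion. That test does not cover the members with few reads. The alternatives were DESeq2, RLE factors, 2 other filters, sex chromosomes included, only the compared libraries, a replicate block, other controls and leaving out each library.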

Additional observations from a re-analysis of the deposited data

Results flagged for a closer look

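In the IVF group of 4 libraries, the 25 tested members with over 3 reads in at least 1 library were examined and 5 had 1 library far from the rest. Chance gives about 1 in 20 groups of measured values, a rate that does not apply to these counts near 0, since the value is 1.0 by construction where a single library has reads. The gap as a share of the range was 1.0 for *Btc* (0, 17, 0 and 0 reads), 1.0 for *Inhbb* (0, 7, 0 and 0) and 1.0 for *Dcn* (0, 0, 0 and 7), 0.85 for *Hsd17b1* (0, 15, 0 and 2) and 0.839 for *Tnc* (0, 13, 2 and 0). Library 2 is the high one in 4 of the 5. Between treatments, 3 differences passed the direct test, with log2 fold changes of 2.18 for *Serpine2* between SCNT-*Kdm4d* and SCNT-*Kdm3a*, 5.31 for *Vim* between RK-701 and A366 (a fitted value, since A366 had 1 and 0 reads), and 1.88 for *Sparc* between RK-701 and UNC0638, each with TSA.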

How the results depend on the processing

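The 43 calls of a member were recomputed under 566 alternatives, of which 432 held, 133 were lost and 1 reversed. The reversed one was *Fst* in CC_G with RK-701 against control CC, with a log2 fold change of 1.9 without control CC library 1 and of down to −9.26 without another library. Of the calls, 9 held under every alternative tried, namely *Sparc* and *Gata6* in untreated SCNT against IVF, *Serpine2* in SCNT-*Kdm3a* against both references, *Sparc* in CC_TG with UNC0638 against control CC, *Vim* in SCNT-*Kdm3a* and in CC_G with A366 against IVF, and *Sparc* in both CC_G groups against IVF. In groups of 2, a library left alone is assumed to vary like the others. Depth limits the members under a few reads. The cause of the changes below was not tested.

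Replicate numbers come from the labels. Over 111 pairs of same-numbered samples of different groups, deviations from the group mean were correlated at −0.312 to 0.159. The median was −0.00408, and 2 exceeded 0.1. In a group of 2 the deviations are equal and opposite, so these pairs are not independent. The check therefore cannot show whether libraries share a batch. With the replicate block, member calls against the own control were 0 for CC_T, 0 for CC_G with RK-701 and 2 for CC_TG with UNC0638, against IVF 1 each for SCNT-*Kdm4d*, CC_T, CC_G with RK-701 and CC_TG with RK-701, and 2 over the added-agent pairs.

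Against the own control, SCNT-*Kdm3a* (5 calls) gave 6 by DESeq2, 3 with only the compared libraries and 6 against the other control. The last included *Inhbb* and *Sparc* and not *Tnfaip6*. SCNT-*Kdm4d* (0) gave 2 by DESeq2, 1 without a filter, 1 with only the compared libraries and 2 against the other control. CC_T (1) gave 0 by DESeq2, 0 by RLE factors, 0 with only the compared libraries and 0 against the other control. CC_G with RK-701 (1) gave 2 without a filter, 0 with only the compared libraries and 2 against the other control. CC_G with A366 (0) gave 1 by DESeq2, 2 without a filter and 1 against the other control. CC_TG with RK-701 (1) gave 2 by DESeq2, 2 by RLE factors, 2 without a filter, 2 at 10 reads in 2 libraries, 0 with only the compared libraries and 3 against the other control. CC_TG with A366 (3) gave 5 without a filter, 0 with only the compared libraries and 1 against the other control. That 1 was *Kitl*, which was not among the 3. CC_TG with UNC0638 (1) gave 3 by DESeq2, 2 by RLE factors, 5 without a filter and 2 at 10 reads in 2 libraries.

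Against IVF, with only the compared libraries, SCNT-*Kdm4d* (2 calls) gave 4, CC_G with RK-701 (2) gave 6, CC_TG with RK-701 (3) gave 6, with A366 (1) gave 6 and with UNC0638 (0) gave 4. By DESeq2, SCNT-*Kdm3a* (3) gave 4, CC_G with RK-701 gave 2 higher and 1 lower, and CC_TG gave 5 for RK-701, 3 for A366 and 3 for UNC0638. Without a filter, CC_G with RK-701 gave 5, CC_TG with A366 gave 4 and with UNC0638 gave 5. At 10 reads in 2 libraries CC_TG with A366 gave 2. The added-agent pairs (4) gave 7 by DESeq2 and 7 with only the compared libraries. The shares of all genes called, given above, are those of the main fit. For the counts in this section, a change in the members thus cannot be told apart from a general change in calls.

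Leaving out 1 library at a time gave 5 to 8 calls for untreated SCNT against IVF, with a median member log2 fold change of −0.33 to 0.13. Against the own control it gave 2 to 3 for SCNT-*Kdm3a*, 0 to 0 for SCNT-*Kdm4d*, 0 to 2 for CC_T, 0 to 1 for CC_G with RK-701, 0 to 3 with A366, 0 to 1 for CC_TG with RK-701, 0 to 2 with A366 and 1 to 2 with UNC0638. Against IVF it gave 2 to 6 for SCNT-*Kdm3a*, 0 to 2 for SCNT-*Kdm4d*, 2 to 4 for CC_T, 1 to 3 for CC_G with RK-701, 2 to 3 with A366, 0 to 3 for CC_TG with RK-701, 0 to 2 with A366 and 0 to 2 with UNC0638. Between the controls it gave 0 to 0, over the direct pairs 2 to 3 and over the added-agent pairs 2 to 6.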
